A study of Mus musculus with 3 samples.

Results

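The Hox genes of the mouse lie in 4 clusters and encode homeodomain transcription factors that give cells a position along the head-to-tail axis. They were chosen from the deposited tables by symbol alone, as every gene named Hox with a cluster letter from a to d and a paralogue number from 1 to 13. This gave 39 of the 43280 genes listed in each table: 11 in the A cluster on chromosome 6, 10 in the B cluster on chromosome 11, 9 in the C cluster on chromosome 15 and 9 in the D cluster on chromosome 2. By paralogue number, 12 belong to groups 1 to 4, 11 to groups 5 to 8 and 16 to groups 9 to 13.

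The RNA came from mouse skeletal mesenchyme at E15.5, which the series text describes as calvarial, that is, from the skull vault. PolyA RNA of what the labels call primary cells was sequenced in 1 library for each of 3 genotypes of Ctnnb1, the gene of beta-catenin. Beta-catenin links cadherins at cell contacts and acts with TCF/LEF factors as the transcriptional effector of Wnt signalling. The series title puts the question as one of nonclassical signalling by beta-catenin in the fate of skeletal cells. The library named dTF-cKO was beta-catenin fx/dm with Dermo1-Cre. The labels do not define dm, and the title of this sample calls the group dTF. The library named cKO was beta-catenin fx/fx with Dermo1-Cre. The control was beta-catenin fx/fx with no Cre. All 3 genotypes therefore carried at least 1 floxed allele, and no library carried the dm allele without Cre, or Cre without a floxed allele. Dermo1-Cre sits in the Twist2 gene and is active in mesenchyme, so neither Cre library is a deletion in every cell. The labels do not say how many embryos went into a library.

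Hox genes are switched on in order along each cluster, with the genes of low paralogue number, at the 3′ end, active furthest towards the head and those of high number active in the lower trunk and limbs. In the hindbrain and the neck the first 4 paralogue groups mark successive segments and pharyngeal arches. The mesenchyme in front of the second arch, including the neural crest that builds the front of the skull vault and the face, normally forms without Hox expression.

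The libraries held 2905264 counts in the dTF-cKO, 2678457 in the cKO and 3634819 in the control. Levels are in CPM, reads per 1000000 on library sizes scaled by the TMM method, so that 1 read was worth 0.357 CPM in the dTF-cKO, 0.354 CPM in cKO and 0.280 CPM in the control. The targeted gene Ctnnb1 had 442 CPM in the dTF-cKO, 745 CPM in cKO and 1026 CPM in the control. The label of calvarial mesenchyme was checked with markers: all 16 genes of an osteoblast list had counts in every library, and the list summed to 8320 CPM in the dTF-cKO, 39507 CPM in cKO and 186370 CPM in the control. Most of that sum was the 2 type I collagen genes, which other connective tissues also express; the other 14 genes summed to 368 CPM in the dTF-cKO, 1209 CPM in cKO and 7381 CPM in the control. Epidermis and hair markers summed to 15203 CPM in the dTF-cKO, 28030 CPM in cKO and 154 CPM in the control. They exceeded the whole osteoblast sum in the dTF-cKO only, and the sum of those 14 genes in both Cre libraries. The libraries also differed in sex-linked RNA, with 2 Xist counts in the dTF-cKO, 0 in the cKO and 1233 in the control, and 444, 362 and 0 counts of 4 Y-linked genes in the same libraries. With 1 library per genotype, embryo, sex, dissection and genotype cannot be told apart, and no test of genotype was possible. The 95% intervals below therefore cover counting error only. PCR copies of a molecule were not marked, so reads need not be separate molecules and these intervals may be too narrow.

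Hox genes were low in every library and far lower in the control than in either Cre library. The 39 genes summed to 202 counts in the dTF-cKO, 148 in the cKO and 18 in the control. On the CPM scale the sum was 72.2 (exact Poisson 95% interval 62.6 to 82.8) in the dTF-cKO, 52.4 (44.3 to 61.5) in the cKO and 5.03 (2.98 to 7.96) in the control. The dTF-cKO sum was 14.3 times that of the control (exact conditional 95% interval 8.84 to 24.7), and the cKO sum was 10.4 times that of the control (6.36 to 18.0). These comparisons share the control, whose 18 counts set most of their width. Between the Cre libraries the dTF-cKO sum was 1.38 times that of the cKO (1.11 to 1.72). That small difference turned on which genes were summed: without Hoxd8 the ratio was 2.56, and over the members that share no exon with another gene it was 0.956. A scaling that sets 54 stromal genes level would multiply every dTF-cKO ratio to the control by 3.20, every dTF-cKO ratio to the cKO by 3.42 and every cKO ratio to the control by 0.808.

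Few members carried these counts. A count above 0 was found for 21 of the 39 genes in the dTF-cKO, 16 in the cKO and 12 in the control. More than 3 counts were found for 13 genes in the dTF-cKO, 9 in the cKO and 1, Hoxd8, in the control. The control was otherwise a scatter of single reads, with exactly 1 count for 11 genes, against 3 such genes in the dTF-cKO and 4 in the cKO. In all, 12 members had no count in any library, namely Hoxa6, Hoxa7, Hoxa9, Hoxa10, Hoxa11, Hoxa13, Hoxb3, Hoxb6, Hoxb7, Hoxc10, Hoxd11 and Hoxd12. A count of 0 allows up to 3 counts, or 1.07 CPM in the dTF-cKO, 1.06 CPM in cKO and 0.839 CPM in the control, so absence was not shown for any of them. Another 12 never exceeded 3 counts: Hoxb1, Hoxb4, Hoxb8, Hoxb9, Hoxb13, Hoxc8, Hoxc9, Hoxc11, Hoxc12, Hoxd3, Hoxd4 and Hoxd13. Differences in these 24 genes were not detectable at this depth.

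**Figure D1:**
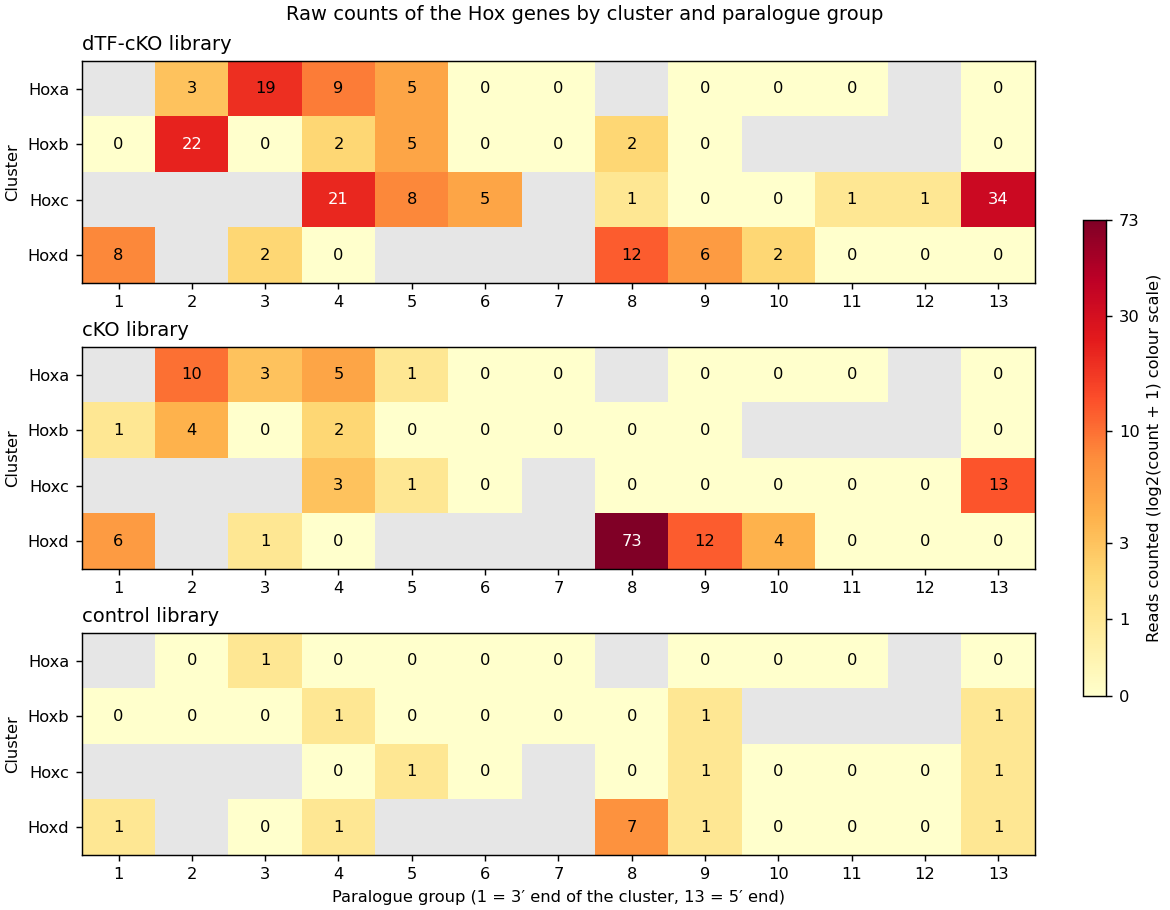
Raw counts of the Hox genes, with clusters as rows and paralogue groups as columns, in the dTF-cKO (top), cKO (middle) and control (bottom) libraries; grey squares are positions with no gene or no value given, and the colour follows log2 of the count plus 1. The largest dTF-cKO counts shown are at Hoxa3, Hoxb2, Hoxc4 and Hoxc13, and the largest cKO count is at Hoxd8 with 73. The control has 7 at Hoxd8 and otherwise at most 1.

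Most of the counts in the grid fall on the 3′ genes of groups 1 to 6, on Hoxd8 to Hoxd10 and on Hoxc13; outside these the Cre libraries had 2 counts of Hoxb8 and 1 each of Hoxc8, Hoxc11 and Hoxc12, all in the dTF-cKO. In the A cluster counts were found up to Hoxa5, which had at most 5, and Hoxa6 to Hoxa13 had 0 counts in all 3 libraries. Since a count of 0 was set to allow up to 3 counts, a boundary between them was not shown.

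The genes of the first paralogue group act in the hindbrain and in sensory neurons. Hoxd1, which in the mouse shapes the nerve endings that sense pain, had 8 counts in the dTF-cKO, 6 in the cKO and 1 in the control. Its ratio to the control was 10.2 in the dTF-cKO (1.37 to 453) and 7.59 in the cKO (0.921 to 349), so only the interval of the dTF-cKO excluded 1. Hoxb1, which marks a single hindbrain segment, had 0 counts in the dTF-cKO, 1 in the cKO and 0 in the control.

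Hoxa2 is the selector gene of the second pharyngeal arch, where it represses the skeletal programme of the first arch and the bone formation that goes with it. Hoxa2 (chr6:52162417-52164831, GRCm38) had 3 counts in the dTF-cKO, 10 in the cKO and 0 in the control, or 1.07, 3.54 and 0 CPM. Against the 3 counts set for a control value of 0, it was at least 4.22-fold higher in the cKO. Such bounds leave out the counting error of the Cre library. The dTF-cKO and cKO values could not be separated, with a ratio of 0.303 (0.0536 to 1.18). Hoxb2, a hindbrain gene of the same paralogue group, had the opposite balance between the Cre libraries. Hoxb2 (chr11:96350525-96354012) had 22 counts in the dTF-cKO, 4 in the cKO and 0 in the control, or 7.86, 1.41 and 0 CPM. It was at least 9.37-fold higher in the dTF-cKO than in control and 5.56 times the cKO level (1.89 to 22.2). Its counts are uncertain, because 58.5% of its exonic length is shared with the antisense gene Hoxb3os and the strand setting of the counting is not given in the sources used here. Hoxb3os itself had 4 counts in the dTF-cKO, 1 in the cKO and 0 in the control.

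Paralogue groups 3 to 5 were mainly a feature of the dTF-cKO library. Hoxa3, needed for the thymus, the parathyroid and the cartilage of the throat (chr6:52169062-52213336), had 19 counts in the dTF-cKO, 3 in the cKO and 1 in the control, or 6.79, 1.06 and 0.280 CPM. It was 24.3 times the control level in the dTF-cKO (3.86 to 1008) and 6.40 times the cKO level (1.88 to 33.8). Hoxa3 shares 29.5% of its exonic length with other annotated genes. Hoxc4, which acts in the vertebrae of the neck and upper thorax and in the oesophagus (chr15:103018934-103036852), had 21 counts in the dTF-cKO, 3 in the cKO and 0 in the control, or 7.50, 1.06 and 0 CPM. It was at least 8.94-fold higher in the dTF-cKO than in control and 7.07 times the cKO level (2.11 to 37.0), and it shares no exon with another gene. Both genes were therefore above the cKO by more than counting error, although the cKO value rests on 3 reads in each case.

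The lower-count neighbours also had their highest counts in the dTF-cKO, but of these only Hoxc5 was above the cKO by more than counting error. Hoxa4 had 9 counts in the dTF-cKO, 5 in the cKO and 0 in the control, a ratio of 1.82 to the cKO (0.547 to 6.91). Hoxc5 had 8 counts in the dTF-cKO, 1 in the cKO and 1 in the control, a ratio of 10.2 to the control (1.37 to 453) and of 8.08 to the cKO (1.08 to 359). Hoxa5, a gene of the neck vertebrae and the lung, had 5 counts in the dTF-cKO, 1 in the cKO and 0 in the control. Its ratio to the cKO was 5.05 (0.565 to 239). Hoxb5 and Hoxc6 each had 5 counts in the dTF-cKO and 0 in both other libraries. Beyond group 6 the dTF-cKO had 2 counts of Hoxb8 and 1 of Hoxc8, and no group 7 gene had a count anywhere.

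In the D cluster 1 gene held most of the cKO counts. Hoxd8, a gene of the trunk and of the developing limb, was the most abundant Hox gene in the cKO and also in the control. Hoxd8 (chr2:74704615-74707933) had 12 counts in the dTF-cKO, 73 in the cKO and 7 in the control, or 4.29, 25.8 and 1.96 CPM. It was 13.2 times the control level in the cKO (6.09 to 34.0). In the dTF-cKO its ratio to the control was 2.19, with an interval of 0.795 to 6.56 that includes 1. The dTF-cKO level was 6.02-fold lower than the cKO level (3.25 to 12.2). Both dTF-cKO ratios depend on the scaling. A scaling to stromal genes would multiply the ratio to the control by 3.20. It would multiply the ratio to the cKO by 3.42, which makes that difference smaller. Hoxd8 made up 5.94% of Hox counts in the dTF-cKO (exact Clopper-Pearson 95% interval 3.11% to 10.1%), 49.3% in the cKO (41.0% to 57.7%) and 38.9% in the control (17.3% to 64.3%).

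The 5′ neighbours of Hoxd8 were low and were likewise highest in the cKO by count. Hoxd9, which acts with its paralogues in the upper limb bones (chr2:74697727-74700208), had 6 counts in the dTF-cKO, 12 in the cKO and 1 in the control, or 2.14, 4.24 and 0.280 CPM. It was 15.2 times the control level in the cKO (2.25 to 649). In the dTF-cKO the interval of the ratio to the control, 7.66, ran from 0.930 to 353. Hoxd10, next along the cluster, had 2 counts in the dTF-cKO, 4 in the cKO and 0 in the control. Taken as 1 block, Hoxd8 to Hoxd10 had 20 counts in the dTF-cKO, 89 in the cKO and 8 in the control, so their sum was 4.41-fold lower in the dTF-cKO than in cKO (2.69 to 7.56). This difference too would be smaller under the scaling to stromal genes. Beyond this block Hoxd11 and Hoxd12 had no count and Hoxd13 had 1, in the control.

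Hoxc13 lay apart from the other genes with counts. It is best known not as an axial gene but as a regulator of keratins in the hair shaft and the nail. Hoxc13 (chr15:102921103-102928814) had 34 counts in the dTF-cKO, 13 in the cKO and 1 in the control, or 12.1, 4.60 and 0.280 CPM. It was 43.4 times the control level in the dTF-cKO (7.29 to 1765) and 16.4 times in the cKO (2.47 to 699). The dTF-cKO level was 2.64 times the cKO level (1.36 to 5.45). Its neighbours Hoxc9, Hoxc10, Hoxc11 and Hoxc12 had at most 1 count in each library. The hair-shaft keratins had few counts: 15 of them summed to 28 counts in the dTF-cKO, 15 in the cKO and 2 in the control, with 5, 11 and 13 of the 15 at 0. Broader epidermis and hair markers, 21 genes, summed to 15203 CPM in the dTF-cKO, 28030 CPM in cKO and 154 CPM in the control, with 2, 1 and 5 of the 21 at 0. Between the Cre libraries the hair-shaft keratin counts stood in the same order as Hoxc13, and the broader sum in the other order. The part of either set of markers in the Hoxc13 result was not tested. Fewer cells of a type and less RNA per cell cannot be told apart in bulk RNA.

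**Figure D2:**
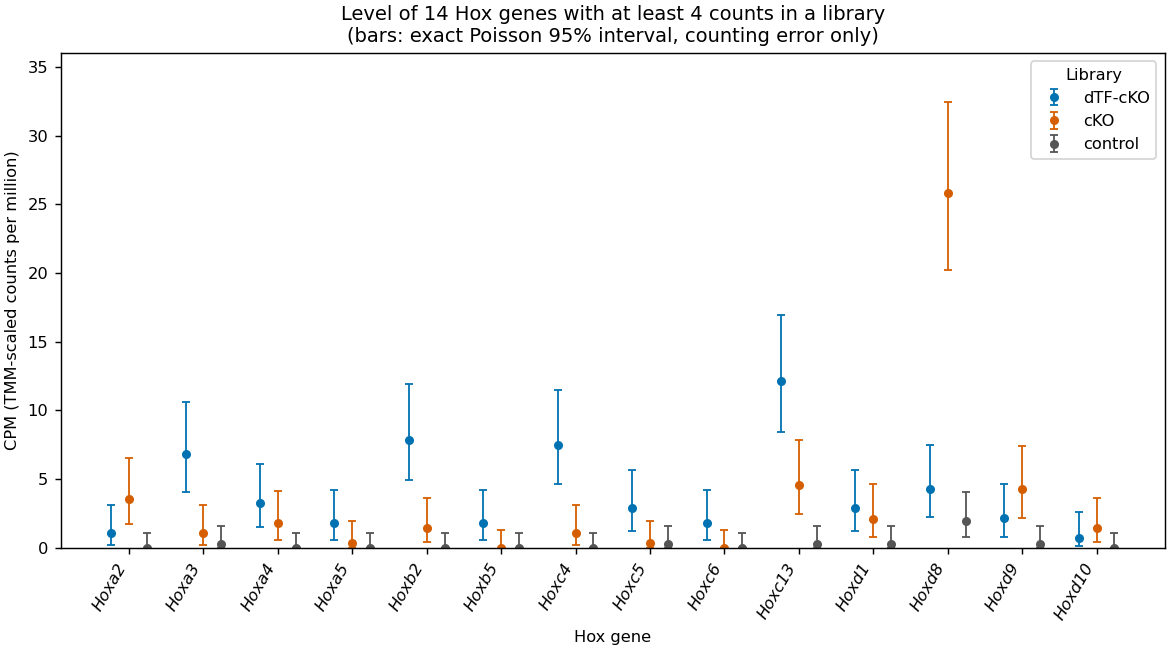
Level in CPM of 14 Hox genes with at least 4 counts in a library, for the dTF-cKO, cKO and control; points are single libraries and bars exact Poisson 95% intervals. Hoxd8 in the cKO stands highest at 25.8 CPM, the dTF-cKO is highest for Hoxa3, Hoxb2, Hoxc4 and Hoxc13, and no control point exceeds 1.96 CPM.

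Levels of different genes were set side by side per kilobase of exon. In the dTF-cKO Hoxc13 had 4.94 CPM per kb (3.42 to 6.90) and Hoxb2 4.83 CPM per kb (3.03 to 7.31). The pair did not differ beyond their counting error. Lower values were those of Hoxc4 with 2.92 (1.81 to 4.47), Hoxa3 with 2.62 (1.58 to 4.09) and Hoxa4 with 2.02 CPM per kb (0.922 to 3.83). Their intervals overlapped those of the pair, so no firm order was shown. In the cKO Hoxd8 was first with 9.41 CPM per kb (7.38 to 11.8). Its interval lay clear of those of Hoxa2 and Hoxd9 with 1.99 CPM per kb each, Hoxc13 with 1.87 and Hoxd1 with 1.14 CPM per kb. Those 4 could not be ranked among themselves. In the control Hoxd8 led with 0.714 CPM per kb (0.287 to 1.47), and every other gene with a count there rested on 1 read.

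The upstream sequences of 4 of these genes are shown because the genes stood in opposite order in the Cre libraries: Hoxa3 and Hoxc4 had more counts in the dTF-cKO, and Hoxd8 and Hoxa2 had more in the cKO, Hoxa2 not beyond counting error. Each is the 250 bases before the gene start in RefSeq on GRCm38.p6, written 5′ to 3′ on the strand of the gene. For Hoxa3 and Hoxc4 this start lies inside the span that GENCODE gives the gene. RefSeq entries were at hand for 22 of the 39 Hox genes, 24 entries in all. The 2 motifs searched, on both strands, were the TCF/LEF motif CTTTGAT, through which beta-catenin acts on DNA, and the HOX-PBX motif TGATNNAT, bound by Hox proteins with their Pbx partners. Capitals mark the matches, none of which overlapped another.
Hoxd8 (chr2:74704365-74704614, plus strand): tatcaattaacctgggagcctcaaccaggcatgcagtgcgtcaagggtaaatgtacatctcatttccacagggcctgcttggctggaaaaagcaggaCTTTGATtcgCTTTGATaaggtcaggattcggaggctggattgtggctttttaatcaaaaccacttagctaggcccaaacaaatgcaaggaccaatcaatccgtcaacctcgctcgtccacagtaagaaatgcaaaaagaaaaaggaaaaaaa
Hoxa2 (chr6:52164832-52165081, minus strand): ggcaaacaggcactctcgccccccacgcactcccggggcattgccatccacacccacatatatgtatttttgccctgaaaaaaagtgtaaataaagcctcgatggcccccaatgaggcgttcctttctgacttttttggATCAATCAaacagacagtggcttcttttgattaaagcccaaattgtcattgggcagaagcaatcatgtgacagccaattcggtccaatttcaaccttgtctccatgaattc
Hoxa3 (chr6:52213068-52213317, minus strand): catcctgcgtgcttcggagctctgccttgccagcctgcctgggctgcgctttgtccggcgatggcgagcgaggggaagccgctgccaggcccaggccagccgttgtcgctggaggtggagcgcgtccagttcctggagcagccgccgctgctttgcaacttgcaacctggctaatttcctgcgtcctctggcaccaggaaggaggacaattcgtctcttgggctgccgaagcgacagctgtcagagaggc
Hoxc4 (chr15:103034145-103034394, plus strand): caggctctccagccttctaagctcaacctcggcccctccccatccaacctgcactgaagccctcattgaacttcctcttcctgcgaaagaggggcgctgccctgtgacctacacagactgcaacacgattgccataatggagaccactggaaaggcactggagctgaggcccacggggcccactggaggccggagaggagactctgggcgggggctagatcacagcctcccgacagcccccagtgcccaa

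Hoxd8 held 2 matches to the TCF/LEF motif, starting at -153 and -143 from the gene start, and was the only 1 of the 24 Hox entries with a match. The motif occurred in 3.21% of 32851 mouse promoter windows of the same length. Hoxa2 held 1 match to the HOX-PBX motif, starting at -111. That motif was found in 4 of the 24 Hox entries, those of Hoxa2, Hoxb1, Hoxb8 and Hoxd11, and in 7.68% of all windows. The Hoxa3 and Hoxc4 windows held neither string of letters. Nor did those of Hoxd9 and Hoxd10, which also had more counts in the cKO and are not shown. The 4 windows shown therefore cannot compare genes higher in the cKO with genes higher in the dTF-cKO. A match is a description of these letters and shows no binding.

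Summed by cluster, the libraries differed in make-up as well as in amount. The A cluster had 70 counts in the dTF-cKO, 28 in the cKO and 1 in the control, and the B cluster had 31, 7 and 3 counts in the same libraries. The C cluster had 71 counts in the dTF-cKO, 17 in the cKO and 3 in the control. The D cluster alone was highest in the cKO, with 30 counts in the dTF-cKO, 96 in the cKO and 11 in the control. The D cluster therefore made up 14.9% of all Hox counts in the dTF-cKO (10.3% to 20.5%), 64.9% in the cKO (56.6% to 72.5%) and 61.1% in the control (35.7% to 82.7%). The control share rests on 18 reads and could not be told from that of the cKO.

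As ratios, the dTF-cKO exceeded the cKO 2.53 times in the A cluster (1.61 to 4.07), 4.47 times in the B cluster (1.93 to 12.0) and 4.22 times in the C cluster (2.46 to 7.64). The B cluster ratios rest largely on Hoxb2, whose counts are uncertain because of its shared exons. Hoxb2 held 22 of the 31 B cluster counts in the dTF-cKO, 4 of 7 in the cKO and 0 of 3 in the control. A B cluster sum without Hoxb2 was not made. The D cluster was 3.17-fold lower in the dTF-cKO than in cKO (2.08 to 4.95), a difference that shrank to a ratio of 1.08 under the scaling to stromal genes. It rests on Hoxd8: without that gene the D cluster had 18 counts in the dTF-cKO, 23 in the cKO and 4 in the control, and the ratio of the Cre libraries, 0.790 (0.402 to 1.53), could not be told from 1. Against the control, the dTF-cKO sums were 13.2 times higher in the B cluster (4.12 to 67.5), 30.2 times in the C cluster (9.93 to 150) and 3.48 times in the D cluster (1.70 to 7.70). The cKO sums were 7.17 times the control in the C cluster (2.07 to 38.2) and 11.0 times in the D cluster (5.90 to 22.8). In the B cluster the cKO ratio to the control was 2.95, with an interval of 0.674 to 17.7, so no difference was detectable there. The A cluster ratios to the control, 89.4 for the dTF-cKO and 35.4 for the cKO, rest on 1 control read.

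**Figure D3:**
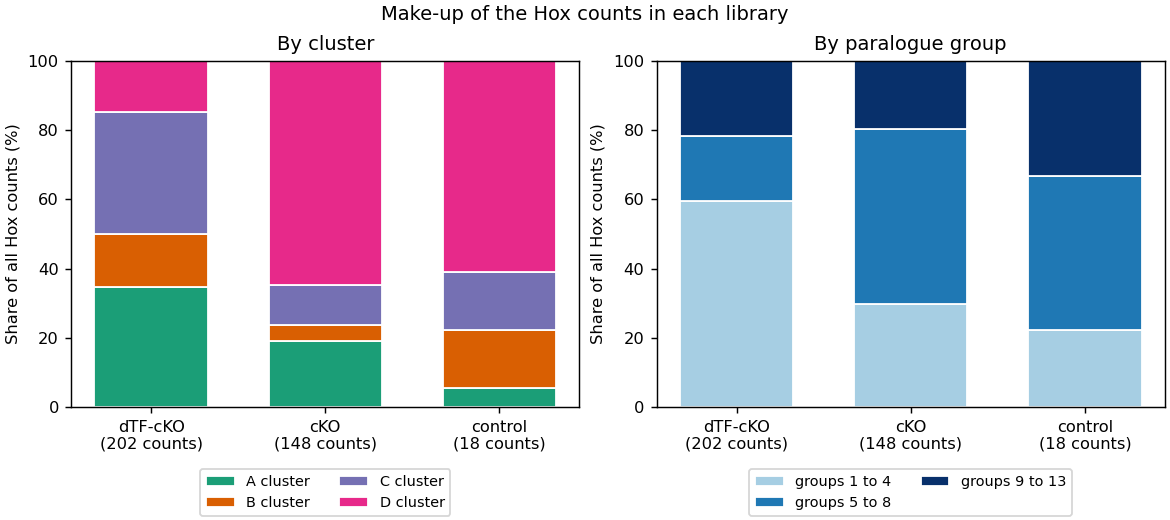
Share of all Hox counts, in percent, held by each cluster (left) and by each class of paralogue groups (right) in the dTF-cKO (202 counts), cKO (148 counts) and control (18 counts). The D cluster takes 14.9% in the dTF-cKO, 64.9% in the cKO and 61.1% in the control, and groups 1 to 4 take 59.4%, 29.7% and 22.2%.

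By position along the clusters, groups 1 to 4 had 120 counts in the dTF-cKO, 44 in the cKO and 4 in the control, groups 5 to 8 had 38, 75 and 8, and groups 9 to 13 had 44, 29 and 6. The 3′ groups 1 to 4 thus made up 59.4% of Hox counts in the dTF-cKO, 29.7% in the cKO and 22.2% in the control. Their sum was 38.3 times the control in the dTF-cKO (14.6 to 143), 13.9 times in the cKO (5.06 to 53.3), and 2.75 times higher in the dTF-cKO than in cKO (1.94 to 3.99). In groups 5 to 8, where Hoxd8 holds most of the cKO counts, the dTF-cKO sum was 1.95-fold lower than the cKO sum (1.31 to 2.97), which turned to a ratio of 1.75 under the scaling to stromal genes and, without Hoxd8, to 13.1 (3.29 to 114). Without Hoxd8, groups 5 to 8 had 26 counts in the dTF-cKO, 2 in the cKO and 1 in the control. Groups 9 to 13 gave a ratio of 1.53 between the dTF-cKO and the cKO (0.938 to 2.54), which includes 1. Without Hoxc13 groups 9 to 13 held 10 counts in the dTF-cKO, 16 in the cKO and 5 in the control.

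**Figure D4:**
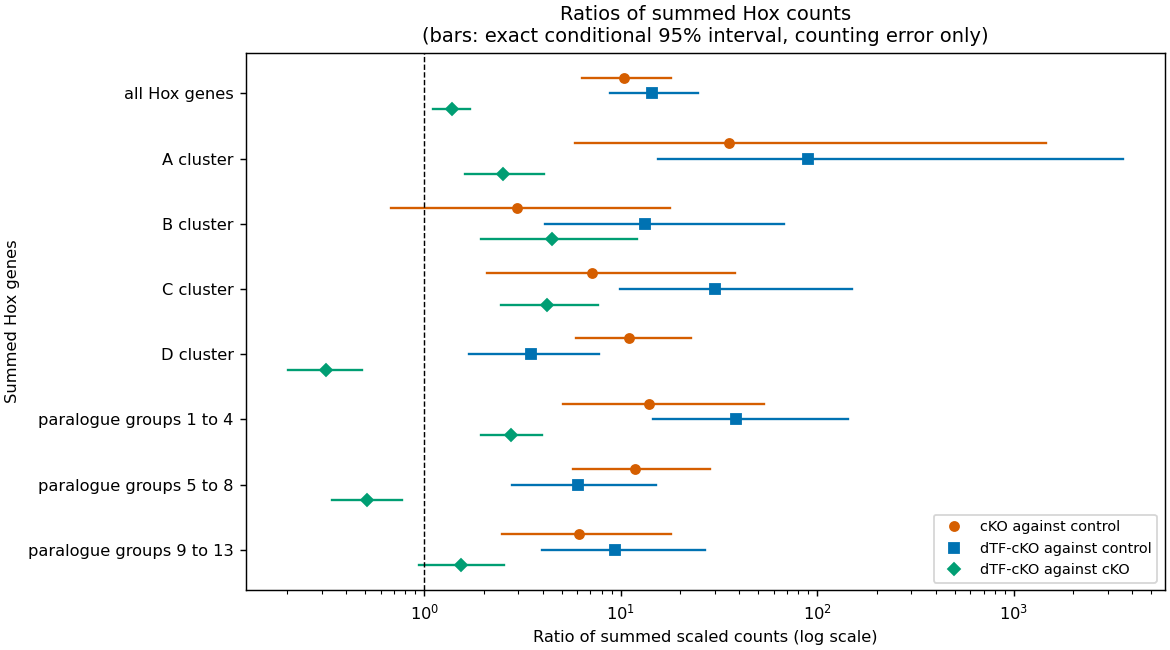
Ratios of summed scaled counts (log axis) for all Hox genes, each cluster and each class of paralogue groups; points are the ratios of the 3 comparisons, bars their exact conditional 95% intervals, and the dashed line marks equal sums. The dTF-cKO against cKO ratio lies above 1 for the A, B and C clusters and at 0.316 for the D cluster, where the scaling to stromal genes gives 1.08 and leaving out Hoxd8 gives 0.790.

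Counts of members past a threshold were read against all genes. Of the 39 members 3, among them Hoxc13 and Hoxd8, averaged at least 5 CPM over the libraries, the level above which 12127 genes were counted as measured. Against the control, 2 of the 3, including Hoxc13, were at least 2-fold higher in the dTF-cKO on the log2 scale with a prior count of 2, where 19.5% of all measured genes were higher. In the cKO all 3 passed 2-fold higher, beside 9.66% of measured genes. Between the Cre libraries, 2 of the 3, including Hoxc13, were higher in the dTF-cKO, beside 14.5% of measured genes, and Hoxd8 was lower, beside 20.5%. No measured Hox gene was 2-fold lower in either Cre library than in control, where 20.9% of measured genes were lower in the dTF-cKO and 6.78% in the cKO. These genes passed the level through the library in which they were high, so the counts describe them and do not stand for the family.

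With a lower level, of at least 10 counts over the 3 libraries, 11 members were tested among 15544 genes. Of these 11, 10 were 2-fold higher and 0 lower in the dTF-cKO than in control, beside 18.0% of genes higher and 25.3% lower, and 9 were higher and 0 lower in the cKO, beside 10.5% higher and 11.0% lower. Between the Cre libraries 6 were higher in the dTF-cKO, beside 15.2% of genes, and 2, Hoxa2 and Hoxd8, were lower, beside 23.8%. Since the control held 18 Hox counts in all, the 11 members reached this level through the Cre libraries, so higher and not lower against the control was set by the level and is no support.

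A rule without either level counted the ratios whose interval excluded 1 among all genes with any count in the pair. By this rule 11 of 26 Hox genes were higher in the dTF-cKO than in control (among them Hoxa3, Hoxa4, Hoxa5, Hoxb2, Hoxb5, Hoxc4, Hoxc5, Hoxc6, Hoxc13 and Hoxd1), and 0 were lower. Of all such genes 22.8% were higher and 22.8% lower. For the cKO against the control, 6 of 21 Hox genes were higher (among them Hoxa2, Hoxa4, Hoxc13, Hoxd8 and Hoxd9) beside 16.1% of all genes, and 0 were lower beside 13.8%. Between the Cre libraries, 6 of 22 Hox genes were higher in the dTF-cKO (among them Hoxa3, Hoxb2, Hoxc4, Hoxc5 and Hoxc13) beside 21.2% of all genes, and Hoxd8 was the 1 that was lower, beside 22.1%. Most of these genes had few or no control counts, which leaves little room for a lower call against the control.

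Noncoding and other genes inside the clusters were counted in the same way. The 15 listed genes that lie inside the clusters, among them Hotairm1, Haglr and Hoxaas2, summed to 25 counts in the dTF-cKO, 8 in the cKO and 1 in the control. With 4 listed genes at the cluster edges, Evx1, Evx2, Hottip and Halr1, the 19 genes summed to 26 counts in the dTF-cKO, 11 in the cKO and 3 in the control. Haglr, a noncoding gene next to Hoxd1, had 10 counts in the dTF-cKO, 2 in the cKO and 1 in the control, and Hoxaas2, which shares exon sequence with Hoxa3, had 5, 1 and 0. The 6 microRNA genes of the clusters had 1 count in all, of Mir10b in the cKO. Hotair, Hottip and Evx1 had no count in any library.

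Protein-coding genes flanking the clusters, chosen after values were seen, mostly differed less than the Hox genes. Skap2, a signalling adaptor gene 143 kb beyond the 3′ end of the A cluster, had 104 counts in the dTF-cKO, 46 in the cKO and 15 in the control. It was 8.86 times the control level in the dTF-cKO (5.13 to 16.4) and 3.88 times in the cKO (2.13 to 7.48). Snx10, the next gene on that side, went the other way, with 10 counts in the dTF-cKO, 14 in the cKO and 64 in the control. Mtx2, beyond the Hoxd1 end of the D cluster, had 95 counts in the dTF-cKO, 93 in the cKO and 75 in the control, ratios of 1.62 and 1.57 to the control. Hibadh, on the far side of the A cluster, had ratios of 2.11 in the dTF-cKO and 1.65 in the cKO.

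The partners and regulators of Hox genes were more even. Pbx and Meis proteins bind DNA with Hox proteins. Of 8 measured genes of a 9-gene list, 1 was 2-fold higher and 1 lower in the dTF-cKO than in control, with a median log2 difference of 0.02, and 0 were different in the cKO, with a median of -0.04. The median of all measured genes was 0.06 in both comparisons, with 19.5% higher and 20.9% lower in the dTF-cKO and 9.66% and 6.78% in the cKO. Meis2 had 69.3 CPM in the dTF-cKO, 28.3 CPM in cKO and 18.7 CPM in the control, which made it 3.70 times the control level in the dTF-cKO (2.79 to 4.96). Pknox2, of the same family, had 2 counts in the dTF-cKO, 52 in the cKO and 88 in the control. Meis2 was likewise the 1 higher gene in the dTF-cKO against the cKO, 2.45 times (1.88 to 3.22), and Pknox2 the 1 lower gene, with a list median of -0.13.

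Polycomb proteins keep Hox clusters silent, and Trithorax proteins keep them active. All 23 listed Polycomb genes were measured. The dTF-cKO against the control had 2 higher and 3 lower, with a median log2 difference of 0.21, where 19.5% of all measured genes were higher and 20.9% lower. The cKO against the control had 0 higher and 1, Cbx8, lower, with a median of 0.11, beside 9.66% and 6.78% of all genes. Between the Cre libraries 1 was higher and 2 lower in the dTF-cKO, with a median of 0.06, beside 14.5% and 20.5%. Cbx7, a chromobox subunit of the repressive complex, had 37 counts in the dTF-cKO, 8 in the cKO and 8 in the control, 5.91 times the control in the dTF-cKO (2.71 to 14.7). Phf19, which helps to bring the complex to its targets, had 4 counts in the dTF-cKO, 34 in the cKO and 50 in the control. Cbx2 was 3.50-fold lower in the dTF-cKO than in control (2.34 to 5.38). Against the same background, 0 of 15 Trithorax genes, all measured, were higher and 2 lower in the dTF-cKO than in control (median -0.02), and 0 differed in the cKO (median -0.10). Between dTF-cKO and cKO 1 was higher and 1 lower, with a median of 0.13. Ash2l was 2.58-fold lower (1.93 to 3.48) and Psip1 2.15-fold lower (1.72 to 2.71) in the dTF-cKO than in control.

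Genes that act before Hox genes in the embryo, or beside them, were mostly not found. Of 10 ParaHox and upstream genes, Cdx1, Cdx2, Cdx4, Gsx1, Gsx2 and Pdx1 had 0 counts in all 3 libraries, and 2 genes, among them Gdf11, were measured. Both were at least 2-fold lower in the dTF-cKO than in each other library, and 1 was higher in the cKO than in control. Gdf11, a growth factor that promotes the shift to posterior Hox genes in the trunk, had 2 counts in the dTF-cKO, 52 in the cKO and 104 in the control.

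Positional factors outside the Hox clusters were lower in the dTF-cKO, and less widely so in the cKO. Of 14 measured head homeobox genes, from a list of 21, 1 was higher and 11 lower in dTF-cKO than in control, with a median log2 difference of -2.58, where 19.5% of all measured genes were higher and 20.9% lower. In the cKO against the control 0 were higher and 3, among them Dlx6 and Six2, were lower, with a median of -0.67, beside 6.78% of all genes lower. In the dTF-cKO against the cKO 1 was higher and 10 were lower, with a median of -1.92, beside 20.5% of all genes lower. Alx4, a skull vault patterning gene, had 3.93 CPM in the dTF-cKO, 89.1 CPM in cKO and 168 CPM in the control. Otx2, a marker of the forebrain and midbrain, had 0 counts in the dTF-cKO, 69 in the cKO and 53 in the control.

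The second list held 28 positional factors of the trunk and limbs, 14 of them measured. The dTF-cKO against the control had 0 higher and 9 lower, with a median of -2.57, beside the same 19.5% and 20.9% of all genes, and in the cKO against the control 1 was higher and 4 lower, with a median of 0.08, beside 9.66% and 6.78%. Between the Cre libraries 0 were higher and 10 lower in the dTF-cKO, with a median of -2.05, beside 14.5% and 20.5%. Tbx2 had 7 counts in the dTF-cKO, 37 in the cKO and 161 in the control, and En1, which also marks the skull vault mesenchyme, had 7, 33 and 124. Meox1 had 3 counts in the dTF-cKO, 51 in the cKO and 60 in the control. Counts of Hand2, Tcf21, Tbx5 and Gata4, genes of the limb, viscera and heart chosen after their values were seen, did not exceed 2 in any library. The measured genes of this list passed the 5 CPM level mostly through the cKO and control libraries, and the source of the Hox counts was not tested.

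**Figure D5:**
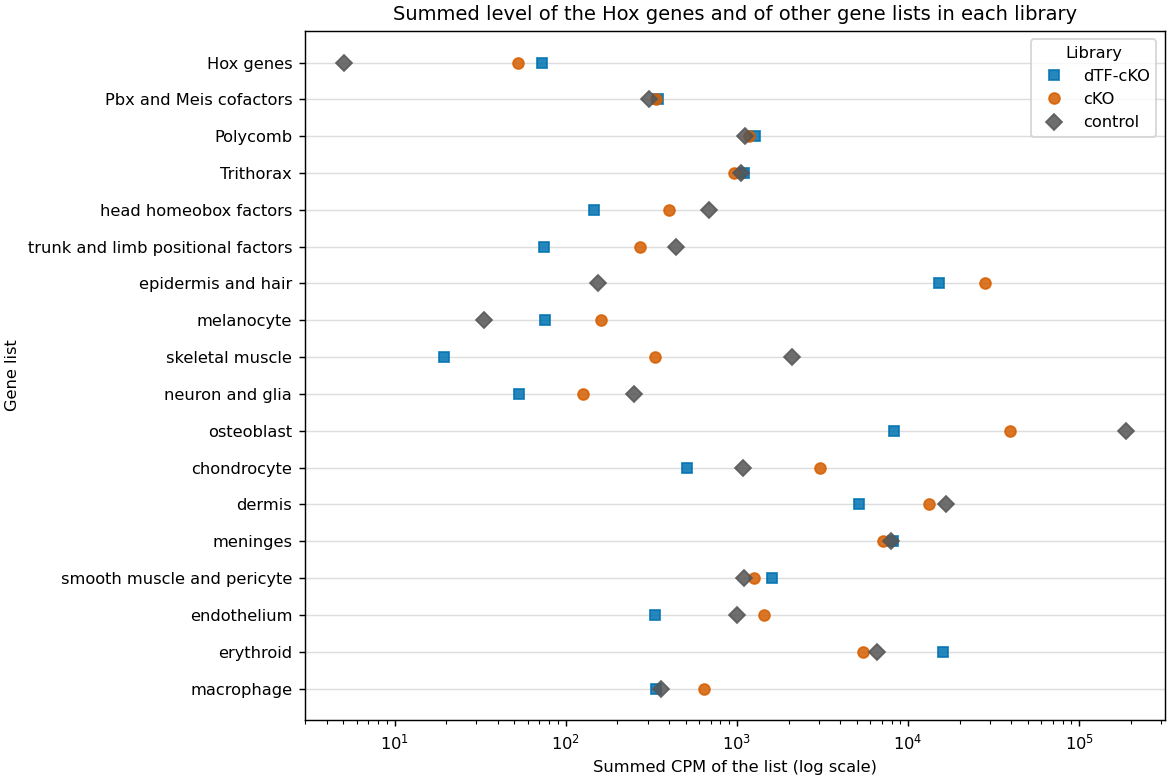
Summed CPM (log axis) of the 39 Hox genes and of other gene lists in the dTF-cKO, cKO and control libraries, 1 point per library. The Hox sum is 72.2, 52.4 and 5.03 CPM, the Pbx and Meis, Polycomb and Trithorax sums lie close together, and the osteoblast sum is 8320, 39507 and 186370 CPM.

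Marker sums of other cell types also differed between the libraries, several of them in the other order from the Hox sum. Skeletal muscle markers summed to 19.3 CPM in the dTF-cKO, 331 CPM in cKO and 2093 CPM in the control, with 7, 1 and 0 of 20 genes at 0. Dermis markers summed to 5161 CPM in the dTF-cKO, 13287 CPM in cKO and 16554 CPM in the control, and endothelium markers to 333, 1446 and 997 CPM, with every gene of both lists above 0. Neuron and glia markers, a tissue in which Hox genes of the hindbrain and spinal cord are active, summed to 52.9 CPM in the dTF-cKO, 126 CPM in cKO and 251 CPM in the control, with 3, 2 and 1 of 15 genes at 0. That sum was lower in both Cre libraries than in control, and the part of neural cells in the Hox counts was not tested. Chondrocyte markers, all 13 above 0, summed to 512 CPM in the dTF-cKO, 3073 CPM in cKO and 1083 CPM in the control.

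Melanocyte markers summed to 75.7 CPM in the dTF-cKO, 161 CPM in cKO and 33.0 CPM in the control, with 1, 0 and 1 of 7 genes at 0. Erythroid markers summed to 15971 CPM in the dTF-cKO, 5452 CPM in cKO and 6541 CPM in the control, with 1, 2 and 1 of 11 at 0. Meninges markers summed to 8153 CPM in the dTF-cKO, 7125 CPM in cKO and 7892 CPM in the control. That level sum rests on a few abundant genes, since 8 of 12 measured meninges genes were 2-fold lower in the dTF-cKO against the control, with a median log2 difference of -1.92, and 8 against the cKO, with a median of -1.83. Smooth muscle and pericyte markers summed to 1607 CPM in the dTF-cKO, 1264 CPM in cKO and 1096 CPM in the control, where again a few abundant genes carry the sum: 3 of 12 were 2-fold higher and 7 lower in the dTF-cKO against the control, with a median of -2.09. Macrophage markers summed to 337, 638 and 361 CPM in the same libraries, and no gene of these 3 lists was at 0. The part of any of these cell types in the Hox counts was not tested.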

How the data were processed

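Raw read counts per gene were used as the authors deposited them, 1 table of 43280 genes for each of 3 libraries. The submitters' processing notes name mm10 as the genome build. Which aligner, counter, annotation and strand option made the tables is not given in the sources used here. The 39 Hox genes were matched by symbol, and coordinates, exon lengths and exon sharing were taken from GENCODE vM21 on GRCm38.

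Counts were scaled with TMM factors (dTF-cKO 0.963, cKO 1.06, control 0.984) in edgeR 4.0.16 under R 4.3.3. Ratios are of scaled counts, with exact conditional intervals from scipy 1.17.1 in Python 3.11.15. Log2 differences used a prior count of 2, and genes were counted as higher or lower at 2-fold. With 1 library per genotype no p-value was computed. Where a library had 0 counts the bound was set at 3 counts in that library, and no fold is given where both had 3 or fewer. The calls were tested on simulated counts with Poisson error only. That test covered genes with a mean of at least 5 CPM, so most Hox genes fall outside it.

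Members were named with all values if they had at least 10 counts in a library. From each of 20 other gene lists the rule took at most 4 measured genes past 2-fold, largest difference first, or failing 2 such genes the 2 most abundant. Other genes were chosen after their values were seen, and the cell type lists are given by their sums. The members and lists were chosen with earlier results of these data known. Alternatives were other scalings (including DESeq2 1.42.0 size factors), floors, prior counts and size rules, and sums without single or exon-sharing genes. Results for a few genes are not reported here, although sums include them.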

Additional observations from a re-analysis of the deposited data

Results flagged for a closer look

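Reads also fell on rows of the tables inside the Hox clusters that no list held. Leaving out pseudogenes, 28 such rows held 25 counts in the dTF-cKO, 2 in the cKO and 0 in the control. The dTF-cKO therefore stood above the limit of 3 counts set for a control value of 0. The 25 counts lay in 5 rows, and the most abundant, chosen after their values were seen, was Gm15050 with 12 counts in the dTF-cKO and 0 in each of the others. These predicted genes overlap or adjoin Hox genes, and how the authors' counting divided reads between them was not tested.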

How the results depend on the processing

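No paired analysis was possible because there was 1 library per genotype, and for the same reason no replicate could be left out. Another scaling set the median difference of 54 stromal genes (dermis, meninges, smooth muscle and pericyte, endothelium) to 0 and moved the median of all genes by 1.64 in the dTF-cKO against the control, 1.73 in the dTF-cKO against the cKO and -0.30 in the cKO against the control, on the log2 scale. Scaling to totals without the 20 most abundant genes moved it by -0.35, -0.29 and -0.06, and scaling to totals moved it by -0.13 in the dTF-cKO against the cKO. Under the stromal scaling the dTF-cKO Hox sum was 45.9 times the control and 4.71 times the cKO. In the dTF-cKO against the cKO, groups 5 to 8 then turned to 1.75, the D cluster came to 1.08, close to equal, and 0 Hox genes were lower. Without exon-sharing genes the dTF-cKO sum was 8.46 times the control and 0.956 times the cKO, close to equal. Without Hoxd8 the dTF-cKO sum was 2.56 times the cKO. Leaving out Hoxd8, an alternative added after seeing the data, turned groups 5 to 8 to 13.1 and moved the D cluster to 0.790 in the dTF-cKO against the cKO. Counts of Hox genes past 2-fold depended on the floor, by construction. Higher in the dTF-cKO than in control were 10 at a mean of 1 CPM, 0 at 20 CPM, 16 with no floor and 10 at 10 counts over the libraries, a floor added after seeing the data. Higher in the cKO than in control were 9, 0, 10 and 9 at the same floors, and higher in the dTF-cKO than in cKO were 6, 0, 10 and 6, with 1 at a prior count of 10 and 1 at 3-fold. Lower in the dTF-cKO than in cKO were 2, 0, 2 and 2. List medians that changed sign under the stromal scaling were, in the dTF-cKO against the control, chondrocyte 0.59, dermis 0.39 and endothelium 0.65, and, against the cKO, melanocyte 0.30, dermis 0.28 and macrophage 0.63. For these the cause was not tested. The hair matrix list, of which Msx2 and Foxn1 were measured, turned to -0.23 in the cKO against the control at a floor of 20 CPM, which leaves Msx2 alone. Depth limits most members: a library's 3 counts equal about 1 CPM, so 24 of 39 genes could show no difference.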
